A study of Rattus norvegicus with 4 samples.

Results

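The NRF2 antioxidant targets described here are 9 genes: Nfe2l2 and Keap1, the regulators of the system, and Gclc, Gclm, Gpx2, Gsr, Txnrd1, Hmox1 and Nqo1, which carry out its work. They were taken by gene name from one-colour Agilent arrays of rat small intestine, and each of the 9 names was found. They are 9 of 35652 genes or unnamed transcripts on the array, read by 13 of its 41012 gene probes on 22 spots. The rats were male Wistar animals, an outbred strain, and they were treated for 12 weeks from the age of 3 weeks. The control group of 2 rats drank tap water, and the compost group of 2 rats drank water that held 1% (v/v) of an extract of fermented compost. RNA came from small intestine freed of Peyer's patches, and the labels do not say which stretch of the intestine was taken. Each array was hybridised with RNA of 1 rat, so that the spread within a group covers rats and array handling together.

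NRF2, the protein of Nfe2l2, is a transcription factor that turns on genes for glutathione synthesis, thiol reduction and the removal of reactive compounds. Keap1 binds it in the cytoplasm and hands it to a cullin ubiquitin ligase for destruction, and electrophiles or oxidants that modify cysteines of Keap1 let NRF2 escape to the nucleus. There it binds, with a small Maf protein, the antioxidant response element in the promoters and enhancers of its targets. In the gut the system is known for its response to plant compounds and other electrophiles of food, and Gpx2 is the glutathione peroxidase named for the gastrointestinal tract. Since NRF2 is controlled mainly through its stability, the mRNA of Nfe2l2 is not a measure of its activity.

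RefSeq promoter windows of build GRCr8 were at hand for 7 of the 9 genes, 8 windows in all, each 300 bases long, with 250 bases before the start of the transcript. They were searched on both strands for TGACNNNGC, the conserved part of the antioxidant response element, with no other motif searched. It was found in 4 windows, those of Gclm, Txnrd1, Gpx2 and Nfe2l2. Across all 33469 promoter windows of the same length, 4038 (12.1%) held it. The stretches around the matches are shown because the element through which NRF2 acts holds these letters. Binding of NRF2 at these 4 places was not measured. Each is given 5′ to 3′ on the strand of its gene, with the match in capitals.
Gclm, chr2:213031937-213031997, plus strand: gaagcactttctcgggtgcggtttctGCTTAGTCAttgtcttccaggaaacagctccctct
Txnrd1, chr7:22755948-22756008, minus strand: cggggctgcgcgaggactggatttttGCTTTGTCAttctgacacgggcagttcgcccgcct
Gpx2, chr6:101230012-101230072, minus strand: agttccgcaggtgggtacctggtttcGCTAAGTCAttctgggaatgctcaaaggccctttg
Nfe2l2, chr3:81028950-81029010, minus strand: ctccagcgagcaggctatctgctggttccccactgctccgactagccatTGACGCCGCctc

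In Gclm, Txnrd1 and Gpx2 the match lies on the strand opposite to the gene, where it reads TGACTAAGC, TGACAAAGC and TGACTTAGC. It spans 172 to 164 bases before the start in Gclm, 78 to 70 bases before it in Txnrd1 and 13 to 5 bases before it in Gpx2. In Nfe2l2 it lies on the strand of the gene, 38 to 46 bases after the start used. The windows of Nqo1, Gclc and Keap1 and the other window of Txnrd1 do not hold these letters, which says nothing about sites farther away. A match is a description of the letters, and the arrays do not show whether NRF2 was bound there.

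Of the 13 probes, 5 read higher in both compost rats than in both control rats: those of Nqo1 and Hmox1, 2 of the 4 probes of Txnrd1 and 1 of the 2 probes of Gpx2. The other 8 overlapped between the groups, and none was lower in both compost rats. Of all 28410 probes tested, 12.4% lay with both compost arrays above both control arrays and 15.5% with both below. No member passed limma's moderated test after Benjamini-Hochberg adjustment over all probes, with an adjusted p of 1.00 for each of the 13. Over all probes 0 (0.0%) passed, 913 (3.21%) had an unadjusted p under 0.05, and the lowest adjusted p was 0.103. Among the members only Nqo1 had an unadjusted p under 0.05.

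The arrays shared 1 slide and 1 scan, and since the control rats took its positions 1 and 2 and the compost rats positions 3 and 4, an effect of position cannot be told apart from that of the group. The median intensity over gene spots was 80.8 to 113, and 66.5% to 71.0% of the gene spots were well above background. Pearson's r between arrays, over probes, was 0.981 to 0.988. The median standard error of a log2 difference was 0.22, and the compost arrays lay farther apart (median gap per probe 0.31) than the control arrays (0.18). Differences below are compost minus control, and levels are log2 intensity relative to the 75th percentile of the same array, so that a level may be followed across arrays but not between probes. With 2 rats a group an exact permutation test cannot go below p = 0.333, and the p-values given come from limma, which borrows the spread from all probes.

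**Figure D1:**
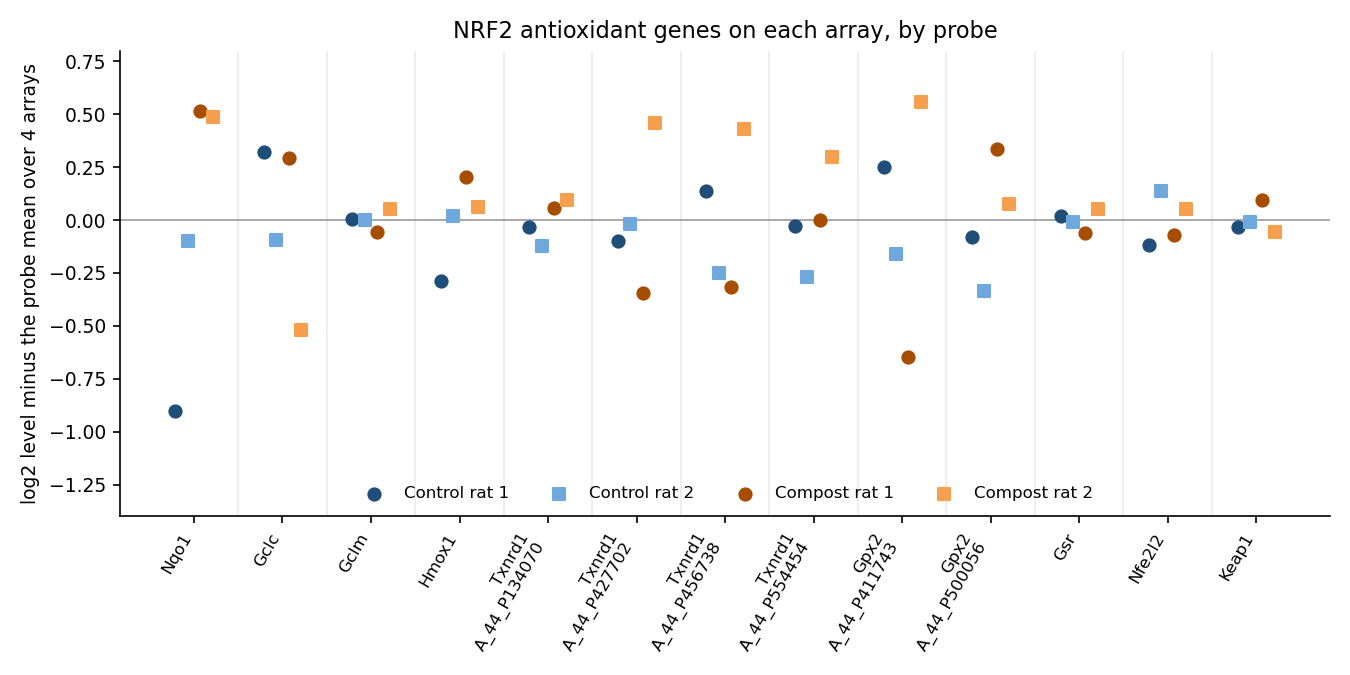
Level of each of the 13 probes on the 4 arrays, as log2 minus the mean of that probe over the arrays; blue marks are control rats, orange marks compost rats, circles rat 1 and squares rat 2. For Nqo1 control rat 1 stands far below the other 3 rats, and for Gclm, Gsr, Nfe2l2 and Keap1 the 4 rats lie close together.

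The regulators differed between the groups by less than their errors. Nfe2l2, the gene of NRF2 itself, was at 4.41 and 4.67 in the control rats and at 4.46 and 4.59 in the compost rats. The compost values lay between the control values. The difference was −0.02 ± 0.20 (SE, n = 2 against 2), with a 95% interval of −0.53 to 0.50. It took the other sign, at 0.02, when arrays were scaled on their medians and at 0.02 with normexp background correction. Keap1, the inhibitor and ligase adaptor, was at 1.29 and 1.31 in the control rats and at 1.42 and 1.26 in the compost rats. The compost rats stood on either side of the controls, and the difference was 0.04 ± 0.18 (interval −0.43 to 0.51). These intervals reach about as far on either side of 0, so equality was not shown.

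Glutathione synthesis was read through its first and rate-limiting enzyme, glutamate-cysteine ligase, a pair of a catalytic subunit, Gclc, and a modifier subunit, Gclm. Gclc was at −0.14 and −0.55 in the control rats and at −0.16 and −0.98 in the compost rats. Each group held a high and a low rat, with compost rat 2 the lowest of the 4. The difference of −0.23 ± 0.35 (interval −1.13 to 0.68) was smaller than the gap between the compost rats, and it read 0.18 without compost rat 2. On control array 2 and compost array 2, the pair with the lower values, the scanner software had not located the spot of Gclc and read its nominal position, and the part of this in the values was not tested. Gclm, the modifier, was at −4.44 and −4.45 in the control rats and at −4.51 and −4.40 in the compost rats. The 4 rats lay within a narrow band. Its difference was −0.00 ± 0.18 (interval −0.47 to 0.46), and it read 0.08 with quantile scaling and 0.03 with median scaling. Gclm was the dimmest probe of the set, with intensities of 34.5 to 43.4 and a software error of 4.60 to 5.57, which was still well above background on all 4 arrays. The software had not located its spot on control array 2 and compost array 1, and the part of this in the values was not tested.

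The use and recycling of glutathione were read through Gpx2, which reduces hydroperoxides with glutathione, and Gsr, which returns oxidised glutathione to its reduced form with NADPH. The Gpx2 probe A_44_P500056 had intensities of 6051 and 5011 in the control rats and 10366 and 6373 in the compost rats. On the scaled log2 axis these were 2.98, 2.72, 3.39 and 3.13. Both compost rats lay above both controls, with 0.15 between the nearest pair. The difference was 0.41 ± 0.21 (interval −0.14 to 0.96), or 1.33-fold, with an unadjusted limma p of 0.111 and an adjusted p of 1.00.

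A further Gpx2 probe, A_44_P411743, designed on an expressed sequence tag, read otherwise. It was at 0.62 and 0.21 in the control rats and at −0.28 and 0.93 in the compost rats. The compost rats held both the lowest and the highest value, 1.21 apart, a gap reached or passed by 4.86% of all probes. Its difference was −0.09 ± 0.45 (interval −1.28 to 1.10), so the probes of Gpx2 disagreed in sign. Of 2781 named genes with several probes kept, 923 (33.2%) had differences of both signs. Gsr was at 1.99 and 1.96 in the control rats and at 1.91 and 2.02 in the compost rats. The control values lay between the compost values, with a difference of −0.01 ± 0.18 (interval −0.47 to 0.45), which read 0.03 with median scaling.

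Txnrd1, the cytosolic thioredoxin reductase that keeps thioredoxin in its reduced form, was read by 4 probes, each with a difference above 0. Probe A_44_P554454 was at 2.99 and 2.75 in the control rats and at 3.02 and 3.32 in the compost rats. Its groups did not overlap, but only 0.03 separated control rat 1 from compost rat 1. Its difference was 0.30 ± 0.21 (interval −0.26 to 0.86), and it read 0.15 without compost rat 2.

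Probe A_44_P134070 of Txnrd1 was at 1.97 and 1.88 in the control rats and at 2.06 and 2.10 in the compost rats. Its groups did not overlap either, with a difference of 0.15 ± 0.17 (interval −0.31 to 0.61). The other probes of Txnrd1 overlapped between groups. A_44_P456738 was at 0.62, 0.23, 0.16 and 0.91 (control rats 1 and 2, then compost rats 1 and 2), with a difference of 0.11 ± 0.33. A_44_P427702, also designed on an expressed sequence tag, was at −2.69, −2.61, −2.94 and −2.13, with a difference of 0.12 ± 0.32. Its spot was not located by the software on either compost array. Both probes read below 0 when compost rat 2 was left out, at −0.26 and −0.29. A_44_P456738 of Txnrd1 and A_44_P411743 of Gpx2 shared an order of rats: high in control rat 1 and compost rat 2, low in control rat 2 and compost rat 1. The probes of Gclm and Gsr held the same order within narrower bands. Nqo1 and Hmox1 shared another order, as did the Txnrd1 probes A_44_P554454 and A_44_P134070, so a shared order was not particular to any pair.

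**Figure D2:**
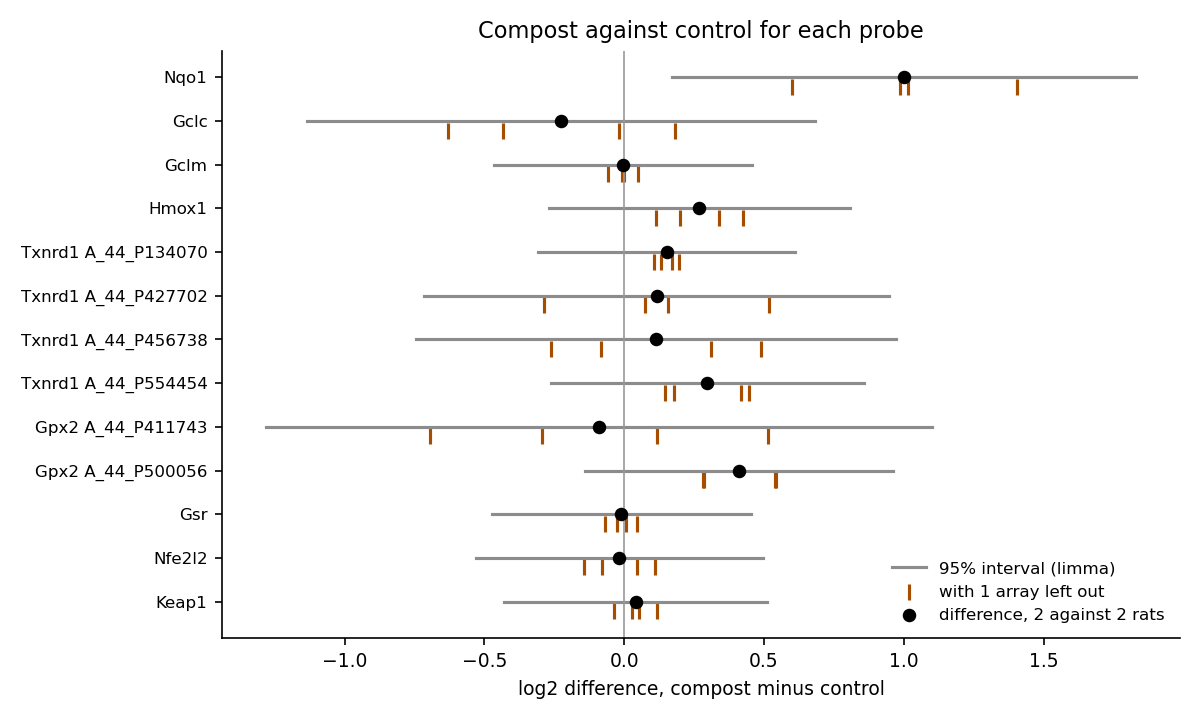
Compost minus control difference (log2) of each of the 13 probes, with the 95% interval from limma as a horizontal line. The interval of Nqo1, 0.17 to 1.83, is the only 1 that leaves out 0; these intervals are not adjusted for the 28410 probes tested.

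Hmox1, the inducible heme oxygenase that opens the heme ring to biliverdin, iron and carbon monoxide, was read by 1 probe spotted 10 times on each array. Its median intensities were 762 and 933 in the control rats and 1369 and 913 in the compost rats. Scaled, the probe was at −0.03 and 0.28 in the control rats and at 0.47 and 0.32 in the compost rats. Both compost rats lay above both controls, but control rat 2 and compost rat 2 were only 0.04 apart. The 10 spots of an array had a median SD of 0.05, against an SD of 0.22 between the control rats and 0.10 between the compost rats, and the latter spreads also hold array handling. The spots of control rat 1 spanned −0.09 to 0.03 and those of compost rat 1 0.38 to 0.56, with no overlap. The spots of control rat 2 spanned 0.14 to 0.38 and those of compost rat 2 0.28 to 0.40, which overlapped. The highest spot of control rat 2, at 0.3803, also lay just above the lowest of compost rat 1, at 0.3791. The difference was 0.27 ± 0.20 (interval −0.27 to 0.81), or 1.20-fold, with an unadjusted limma p of 0.250 and an adjusted p of 1.00. It read 0.11 without control rat 1 and 0.42 without control rat 2.

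**Figure D3:**
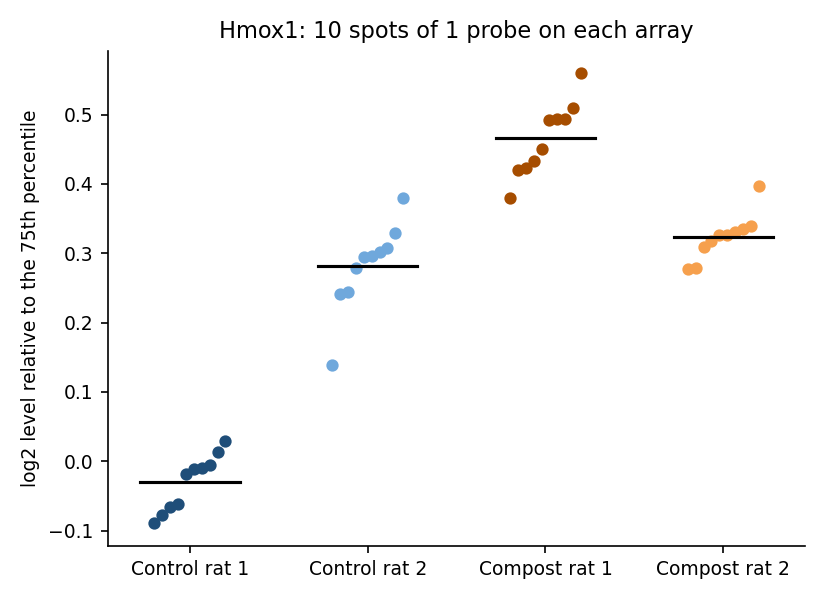
Scaled log2 level of the 10 Hmox1 spots on each array, 1 point per spot, with a line at the mean of the array. The spots of control rat 2 overlap those of compost rat 2 and, narrowly, those of compost rat 1. The spots of control rat 1 lie lowest, and the mean of compost rat 1 is the highest.

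Macrophages take part in heme turnover through Hmox1, and the median of their markers was highest in compost rat 1. Of 12 macrophage and dendritic cell markers kept, 10 read higher in compost, with a median difference of 0.49, and 3 lay above in both compost rats, against 12.7% of all genes. Without compost rat 1 the median was 0.049, with 7 of 12 higher, and without compost rat 2 it was 0.96. The list's median, centred on the mean over arrays, was −0.14 and −0.27 in the control rats, 0.70 in compost rat 1 and −0.27 in compost rat 2. Its summed level (log2) was 8.11 and 8.49 in the control rats and 8.49 and 8.01 in the compost rats. By the sum, control rat 2 was as high as compost rat 1. Compost rat 1, with the highest marker median, also had the highest Hmox1, but the other rats did not keep this order. Compost rat 2, with a marker median of −0.27, had Hmox1 at 0.32. Control rat 1, with a marker median of −0.14, had the lowest Hmox1, at −0.03. The part of macrophages in the result for Hmox1 was not tested.

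Nqo1, the quinone reductase that passes electrons in pairs from NADH or NADPH to quinones, showed the widest separation between groups among the members. Its single spot had intensities of 423 and 730 in the control rats and 1450 and 1049 in the compost rats, with software errors of 42.4, 73.0, 145 and 105. Scaled, the values were −0.86 and −0.06 in the control rats and 0.55 and 0.53 in the compost rats. The compost rats were nearly equal, 0.03 apart, while the control rats were 0.81 apart, and 0.58 lay between the nearest values of the groups. The difference was 1.00 ± 0.32 (interval 0.17 to 1.83), and the interval ran from 1.13-fold to 3.56-fold. The unadjusted limma p of 0.0274 placed it at rank 493 of 28410 probes (1.74%), and the adjusted p was 1.00.

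The size for Nqo1 rested to a good part on control rat 1: without it the difference was 0.60, and without control rat 2 it was 1.40. Leaving out a compost rat gave 0.99 and 1.02. The scanner software had not located the spot on the arrays of control rat 1 and compost rat 1, the lowest and the highest reading. On these arrays 12.8% to 13.9% of gene spots shared that state. Its part in the value was not tested. Across the members 8 of 88 spot readings, from 4 probes, were of this kind.

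By the distance between mean-centred log2 values over the 4 arrays, the gene nearest to Nqo1 among 24309 was Noxo1, an organiser subunit of NADPH oxidase of the gut epithelium. Noxo1 was at 0.59 and 1.39 in the control rats and at 1.93 and 1.94 in the compost rats, with a root mean square distance of 0.03 and a difference of 0.94. Like Nqo1 it was lowest in control rat 1 and nearly equal in the compost rats. Of the next 4, 2 had a current gene name, Far1 and Tekt2, both at a distance of 0.08, with differences of 0.92 and 0.91. Within a distance of 0.2 of Nqo1 there were 39 genes, and within the same distance of Gpx2 (A_44_P500056) there were 2265. These counts are not comparable, since values of Gpx2 vary less over the arrays and more genes then fall within a fixed distance. The named ones of the 5 nearest to Gpx2 were Mterf1, at a distance of 0.02 and a difference of 0.38, and Chgb, at 0.03 and 0.39. With 4 arrays, likeness of this kind is a description of these rats.

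The wider pathway was read through 8 lists of related genes, in which 100 of 112 genes were kept. Of these, 50 read higher and 50 lower, the median difference was −0.00, and 46.5% of all genes read higher. Both compost rats lay above both controls in 14 and below in 17, against 12.7% and 15.2% of all genes. Each adjusted p was 1.00, and 2 genes had an unadjusted p under 0.05, against 3.31% of all genes.

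The thioredoxin and peroxiredoxin list holds thioredoxins, further thioredoxin reductases, peroxiredoxins and related proteins of several cell compartments. It read higher in 9 of 13 genes, and its median was 0.11, against −0.02 over all genes. The groups did not overlap for 5 of the 13, of which 4 were higher in compost and 1 lower. Over all genes, 12.7% lay above in both compost rats and 15.2% below. Txn1, thioredoxin itself, was at 6.22 and 6.61 in the control rats and at 6.70 and 6.87 in the compost rats. Its difference was 0.37 ± 0.22. Prdx2, a cytosolic peroxiredoxin that thioredoxin recycles, differed by 0.33 ± 0.22, and Prdx4, a peroxiredoxin of the endoplasmic reticulum, by 0.28 ± 0.20. Without control rat 1 Txn1 read 0.17 and Prdx2 0.15, and without compost rat 1 Prdx4 read 0.13.

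The list of glutathione peroxidases and peroxide removal had a median of 0.24, and 7 of its 9 genes read higher, but the groups overlapped in each of the 9. Of all genes, 12.7% lay above in both compost rats and 15.2% below. With normexp, quantile or median scaling, 2 of the 9 lay above in both compost rats. In these settings 11.4%, 14.2% and 16.1% of all probes did so. The list's centred median was 0.48 in compost rat 1 and −0.15 to −0.11 in the other 3 rats, and the median difference was −0.00 without compost rat 1. The macrophage and dendritic cell markers, at 0.70 in compost rat 1 and −0.27 to −0.14 in the other rats, followed the same rat, and their part in this list's values was not tested. Gpx7 was at −1.50 and −1.32 in the control rats and at −0.71 and −1.32 in the compost rats. Gpx1, the widespread cytosolic peroxidase, differed by 0.24 ± 0.23 and Gpx8 by 0.27 ± 0.28.

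In the list of other NRF2-linked detoxification genes, 18 of 21 read lower in compost, with a median of −0.22. Both compost rats lay below both controls in 9 of the 21 and above in 1, against 15.2% and 12.7% of all genes. Abcc2, the apical pump for glutathione and glucuronide conjugates, was at 1.09 and 0.40 in the control rats and at −1.78 and −0.03 in the compost rats. Compost rat 1 stood far below the rest, and the difference was −1.65 ± 0.64 with an unadjusted limma p of 0.054. It was −0.77 without compost rat 1 and −2.52 without compost rat 2. Abcc1, a related pump, was at 1.25 and 1.43 in the control rats and at 0.87 and 0.90 in the compost rats, with a difference of −0.45 ± 0.18. Ugt1a6, a glucuronosyltransferase, differed by −0.54 ± 0.26, and by −0.25 without control rat 1. So the detoxification list and Nqo1 lay on opposite sides of 0, and the difference between them was not tested.

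Absorptive enterocytes carry much of this detoxification, and their markers were lower in the compost rats. All 12 enterocyte markers kept read lower in compost, with a median difference of −0.44. Of these, 8 lay below in both compost rats, against 15.2% of all genes. With quantile or median scaling 11 of the 12 read lower. The median was −0.20 without compost rat 1, when 10 of 12 read lower, and −0.65 without compost rat 2. Their summed level (log2) was 11.30 and 11.01 in the control rats and 10.48 and 10.87 in the compost rats. Of the 12, 10 were well above background on all 4 arrays, while Lct and Alpi, the genes of lactase and intestinal alkaline phosphatase, were so in the control rats alone. Without Lct and Alpi, all 10 read lower, with a median of −0.40, and 6 lay below in both compost rats. In tissue samples such as these, fewer cells of a type and less RNA per cell cannot be told apart. The part of enterocyte content in the values of the detoxification list, and of Nqo1 and Gpx2, was not tested. All 4 goblet cell markers read higher, with a median of 0.13, which was −0.038 without control rat 2 and 0.32 without control rat 1. All 7 B and plasma cell markers read higher, with a median of 1.45 and summed levels of 1.51 and 2.10 against 3.54 and 2.86. Their median was 0.75 with normexp background correction. Of the 7, 5 were well above background on all 4 arrays, and these 5 all read higher, with a median of 1.45.

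In the list of glutathione synthesis and transport, 10 of 14 genes read higher, with a median of 0.07. Both compost rats lay above in 3 and below in 2, against 12.7% and 15.2% of all genes. Anpep, the brush border aminopeptidase that cleaves dipeptides of glutathione breakdown and also an enterocyte marker, was at 7.20 and 6.89 in the control rats and at 6.38 and 6.22 in the compost rats. Its difference was −0.75 ± 0.21, with an unadjusted limma p of 0.018. Slc1a1, a glutamate transporter, differed by −0.42 ± 0.20. The glutathione transferases were split, with 9 of 17 higher, 8 lower and a median of 0.03. Gstm4 was at 2.15 and 1.76 in the control rats and at 1.64 and 0.87 in the compost rats, a difference of −0.70 ± 0.33 that read −0.31 without compost rat 2 and −1.08 without compost rat 1. Gstm2 differed by −0.30 ± 0.19 and Gstm5 by 0.37 ± 0.19, so members of 1 class lay on either side. Probes of such closely related transferases may share transcripts.

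Among the regulators and relatives of NRF2, 8 of 14 genes read higher, with a median of 0.03. Nfe2l3, a transcription factor of the same family, was at −5.31 and −5.14 in the control rats and at −4.29 and −4.60 in the compost rats. Both compost rats lay above, and the difference was 0.78 ± 0.21, with an unadjusted limma p of 0.015. Its probe was dim, and 1 of the 2 control arrays did not hold it well above background. With normexp background correction its difference was 0.19. Maff and Mafg, small Maf partners of NRF2, differed by 0.40 ± 0.33 and −0.22 ± 0.20. Maff read 0.0074 with normexp background correction and −0.026 without control rat 2, and Mafg read −0.059 without compost rat 1.

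The lists of NADPH supply and of heme and iron handling had medians of −0.06 and −0.02. The first read 0.0097 without control rat 2. In it, 2 of 6 genes read higher and none separated the groups. Me1, malic enzyme, differed by −0.27 ± 0.23. In the second, 2 of 6 read higher and 1, Blvra, the biliverdin reductase that acts after Hmox1, separated the groups, with a difference of 0.16 ± 0.17. Of all genes, 12.7% separated the groups with compost above and 15.2% with compost below. Fth1, the ferritin heavy chain, differed by −0.17 ± 0.20 and Alas1, the first enzyme of heme synthesis, by −0.04 ± 0.20.

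**Figure D4:**
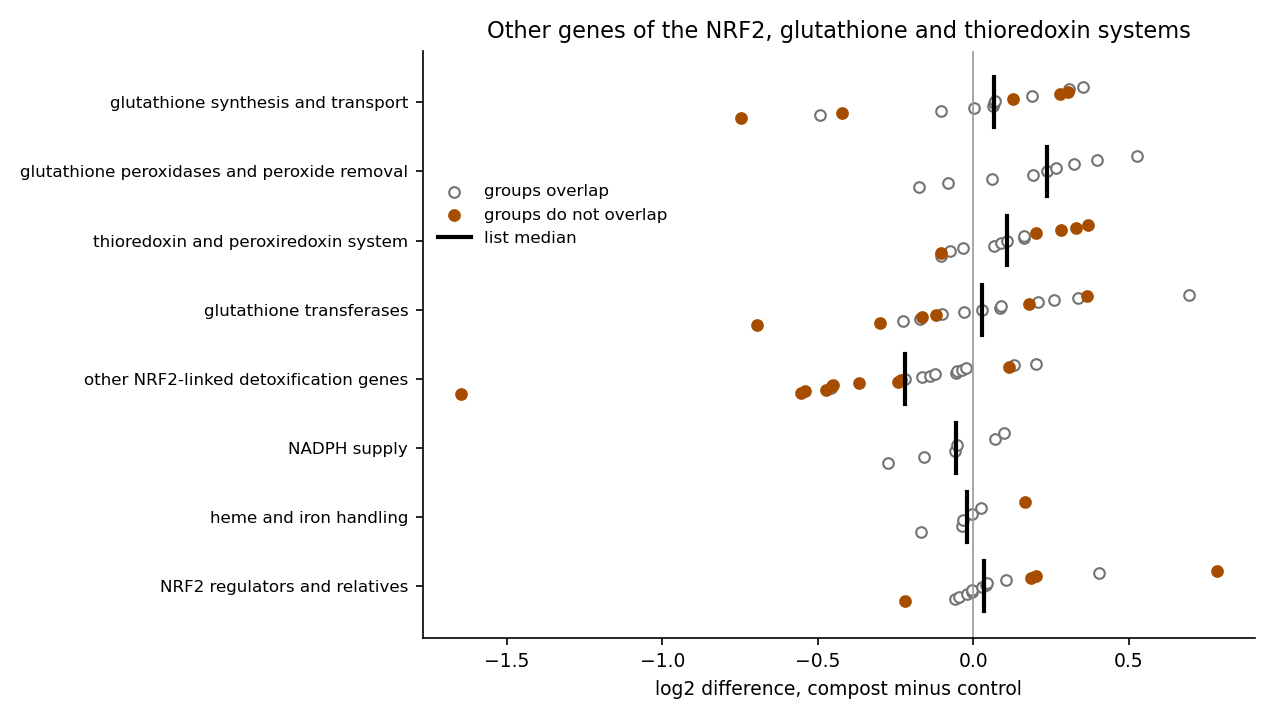
Compost minus control difference (log2) of each of the 100 genes kept in the 8 lists, 1 point per gene; filled points are genes whose compost and control rats do not overlap, and the black bars are list medians. The detoxification list lies mostly to the left of 0, with a median of −0.22, and the peroxidase list mostly to the right, with a median of 0.24 and no filled point.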

How the data were processed

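The values are the deposited intensities of the scanner files, the processed green signal that Agilent Feature Extraction 9.1.3.1 (per the submitters' processing notes) gives after background subtraction, 1 file per rat. The table of values the authors deposited differed from these by under 0.5%, linear and not centred, with column medians of 80.2, 79.4, 102 and 73.9. Control spots and outlier spots were left out, spots of a probe were averaged on the log2 scale, and the 75th percentile of each array was subtracted. A probe entered the test when 2 or more arrays held it well above background. Compost was compared with control in limma 3.58.1 (R 4.3.3), two-sided, with Benjamini-Hochberg adjustment over 28410 probes; the script was tested on simulated data. A listed gene was represented by its brightest probe. The text names all 9 members, up to 3 genes per list with the smallest unadjusted p, and, of the 5 nearest in pattern to Nqo1 and to Gpx2, those with a current gene name; list genes named for a marker result were chosen after their values were seen. A further gene that the rule names is not reported here. Members and lists were chosen with earlier results of these data known. Replicate numbers did not pair the rats (correlation of deviations −0.04). Precision is limited by the number of arrays.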

Additional observations from a re-analysis of the deposited data

How the results depend on the processing

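Of 13 alternatives, none brought a member past an adjusted p of 0.05 (lowest 0.493, limma). Over all probes, 1 passed with normexp background correction (LOC500183) and 0 to 2 with a rat left out. The share of probes with compost above and below control was 12.4% and 15.5%, 16.1% and 12.2% with median scaling, and 14.2% and 14.1% with quantile scaling. Values near 0 changed sign: Nfe2l2 to 0.016 with normexp and 0.019 with median scaling, Gclm to 0.083 with quantile and 0.032 with median scaling, Gsr to 0.027 and Alas1 to 0.00022 with median scaling. The replicate block gave 0 calls and an unadjusted p of 0.0258 for Nqo1, and it changed no other call. With median scaling every difference moved by the same 0.037, because this scaling subtracts another single value from each array. The cause of the other shifts was not tested.

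With a rat left out, more probes separated the groups because fewer arrays must do so, 6258 to 10354 above and 8243 to 12145 below, and 613 to 2939 had an unadjusted p under 0.05. Members ranged from −0.63 to 0.18 (Gclc), −0.058 to 0.049 (Gclm), −0.067 to 0.048 (Gsr), −0.14 to 0.11 (Nfe2l2), −0.036 to 0.12 (Keap1), −0.69 to 0.51 (Gpx2 A_44_P411743), −0.29 to 0.52 (Txnrd1 A_44_P427702) and −0.26 to 0.49 (Txnrd1 A_44_P456738). Other genes ranged from −0.0061 to 0.48 (Gpx1), −0.078 to 0.61 (Gpx8), −0.075 to 0.27 (Taldo1), −0.16 to 0.082 (Alas1) and −0.026 to 0.83 (Maff). List medians ranged from −0.071 to 0.11 (glutathione synthesis), −0.00 to 0.53 (peroxidases), 0.046 to 0.23 (thioredoxin), −0.083 to 0.13 (transferases), −0.27 to −0.16 (detoxification), −0.097 to 0.0097 (NADPH), −0.042 to 0.022 (heme) and 0.0094 to 0.17 (regulators).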
